A study of Mus musculus with 6 samples.

Results

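The nuclear genome encodes most subunits of the 5 complexes of oxidative phosphorylation. These genes were followed in libraries described as mouse podocytes, with and without a knockout of CD2BP2. Members were taken by gene symbol: every single Ensembl identifier whose symbol starts with Nduf (complex I), Sdh (complex II), Uqcr (complex III), Cox4, Cox5, Cox6, Cox7 or Cox8 (complex IV) or Atp5 (complex V). This gave 105 genes of 35981 single identifiers, 31300 of which had a symbol: 48 of complex I, 8 of complex II, 10 of complex III, 19 of complex IV and 20 of complex V. By symbol, 83 of them are subunits, 12 are assembly factors (8 Ndufaf and 4 Sdhaf genes), 7 are pseudogenes, and Ndufa4, Ndufa4l2 and Cox7a2l were set apart. The rule used names only and no measured value. Atp5o, Ndufb8 and Ndufb2 lie in 3 of the 908 aggregate identifiers, which join overlapping genes, and were therefore not members. The prefixes also leave out the subunits Cyc1 and Usmg5.

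RNA sequencing of 6 libraries was used, 3 labelled CD2BP2 Knockout (KO1, KO2, KO3) and 3 labelled Wildtype (WT1, WT2, WT3), all described as podocytes on the C57BL/6 background. CD2BP2 is a protein with a GYF domain that binds the U5 particle of the spliceosome. In the targeted allele a loxP site was placed downstream of exon 3 of the gene's 7 exons. The labels' treatment text describes CD2BP2 flox/flox MxCre+ mice aged 6 to 10 weeks and littermate controls that received 300 µg poly(I:C), followed by culture of bone marrow macrophages, so it does not describe podocytes. The Cre driver, age and treatment of the podocyte libraries are not stated there. The labels do not tie the libraries to individual animals, and p-values therefore measure library-to-library spread that may be technical.

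Podocytes are the epithelial cells that wrap the glomerular capillaries and form the last layer of the kidney filter. In the respiratory chain, complex I takes electrons from NADH and complex II takes them from succinate. Both pass them to ubiquinone, complex III passes them on to cytochrome c, and complex IV passes them to oxygen. Complex V, the ATP synthase, uses the proton gradient made by complexes I, III and IV. In the kidney these complexes are known to be most abundant in tubule cells, which are rich in mitochondria, and glomerular cells are known to hold fewer of them. The subunits encoded in mitochondrial DNA could not be followed, because all 43 mitochondrial exonic parts were listed at 0 counts.

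The libraries held 186022084 to 255554573 counts, summed over exonic parts, which are the stretches into which the annotation cuts overlapping exons. Cd2bp2 itself was at 61.0, 61.8 and 60.8 CPM in WT and at 48.4, 47.3 and 51.0 CPM in KO, where CPM is counts per 1000000 after scaling library sizes by trimmed means (TMM). It fell by 0.32 on the log2 scale (standard error 0.05, adjusted p = 0.0297 by edgeR; of the fits with 1 library left out, only that without KO3 still called it), so KO libraries retained most of its counts. The podocyte markers, 14 of 14 tested, summed to 24831 to 28025 CPM in WT and 23087 to 24974 CPM in KO. Of these, Nphs1, which encodes nephrin of the slit diaphragm, fell by 0.53 on the log2 scale (standard error 0.08, from 2902 ± 121 to 2014 ± 192 CPM, SD over 3 libraries, adjusted p = 0.0350 by edgeR), a call that ended with any library left out, and no other passed by edgeR, while DESeq2 called 4 lower and 1 higher. Markers of other cells were present too, so the values are those of mixed libraries and not of podocytes alone. Endothelial markers (11 genes) summed to 7410 to 7837 CPM in WT. Mesangial and smooth muscle markers (10 genes) summed to 2793 to 3091 CPM in WT, and both lists are described with Ndufa4l2 below. Proximal tubule markers (20 genes) summed to 827 to 1428 CPM in WT and to 1486, 1916 and 1272 CPM in KO1, KO2 and KO3. The fold change was positive in 19 of the 20, with a median of 0.56 (0.36 without KO2). By edgeR 2 of them, Slc34a1 and Slc22a12, rose. Of the fits with 1 library left out, only that without KO3 still called them. DESeq2 called 5 of the list higher. Markers of the loop of Henle, distal tubule and collecting duct (18 genes) summed to 224 to 402 CPM in WT and to 622, 1648 and 320 CPM in KO1, KO2 and KO3. All 18 had a positive fold change, with a median of 1.62 (0.71 without KO2). By edgeR 12 had an unadjusted p under 0.05 and 1, Avpr2, was called, a call that ended with any library left out. DESeq2 called 7 of the list higher and limma-voom 0. Macrophage markers (13 genes) summed to 106 to 141 CPM in WT and 207 to 228 CPM in KO. All 13 had a positive fold change, with a median of 0.84. By edgeR 4, Lyz2, Tyrobp, Ctss and Spi1, rose. Without WT2 edgeR called 0, and without any other library 1, Lyz2. DESeq2 called 7 of the list higher. Lymphocyte markers (10 genes) summed to 25.1 to 47.4 CPM in WT and 40.3 to 71.5 CPM in KO, all 10 with a positive fold change and a median of 0.76; edgeR called 0 (3 at an unadjusted p under 0.05), limma-voom 0 and DESeq2 3, Cd79a, Ms4a1 and Ptprc, all higher. Erythroid markers (4 genes) summed to 6.98 to 110 CPM in WT and 17.1 to 60.5 CPM in KO, with 0 called by edgeR (1 at an unadjusted p under 0.05), DESeq2 or limma-voom. In bulk libraries, fewer cells of a type and less RNA per cell cannot be told apart.

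Differences in respiratory chain transcripts between KO and WT libraries were small, and 1 member passed the test. Of 96 members with enough counts to test, 0 rose and 1, Ndufa4l2, fell in KO at an adjusted p under 0.05, the threshold throughout (edgeR quasi-likelihood test, Benjamini-Hochberg adjustment over 19742 genes). Over all genes tested, 3.37% passed, 1.62% higher and 1.76% lower in KO. At an unadjusted p under 0.05 the members numbered 14 of 96, against 22.6% of all genes. DESeq2 called 6 members, Ndufa4l2 and Cox4i2 lower and Ndufa7, Sdhd, Cox7a2 and Atp5s higher, against 14.1% of all genes to which it gave an adjusted p. Limma-voom called 0 members, against 2.49% of all genes.

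Fitted changes were small and lay mostly above 0. The log2 fold change was positive in 85 of 96 members, against 50.9% of all genes tested. Their median was 0.10 with quartiles of 0.05 and 0.16, beside a median of 0.01 and quartiles of -0.14 and 0.21 over all genes. In 27 members all KO libraries were above all WT libraries (all genes, 14.1%), and in 2, Ndufa4l2 and Cox4i2, they were all below (all genes, 14.8%). Together the members took 0.687%, 0.662% and 0.675% of all counts in WT1, WT2 and WT3 and 0.731%, 0.847% and 0.717% in KO1, KO2 and KO3.

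The upward shift lay largely in KO2. Relative to the WT mean, the median member stood at a log2 ratio of 0.018, -0.002 and -0.019 in WT1, WT2 and WT3 and of 0.077, 0.217 and 0.013 in KO1, KO2 and KO3. KO2 was the highest of the 6 libraries for 74 of 96 members, against 22.9% of all genes. It was highest for all 8 tested subunits of complex III and all 4 of complex II, for 15 of 16 of complex V, 11 of 15 of complex IV and 26 of 35 of complex I. In a fit without KO2 the members' median was 0.03 and 62 of 97 were above 0, beside 48.8% of all genes. KO2 was also the library with the most tubule marker RNA, and KO1, which came second for the members' median, came second for both tubule lists. WT3, lowest for the members' median, had a higher sum of proximal tubule markers (1428 CPM) than KO3 (1272 CPM). By the median log2 ratio of that list, WT3 (0.01) lay below KO3 (0.23). The part of these cells in the members' levels was not tested.

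**Figure D1:**
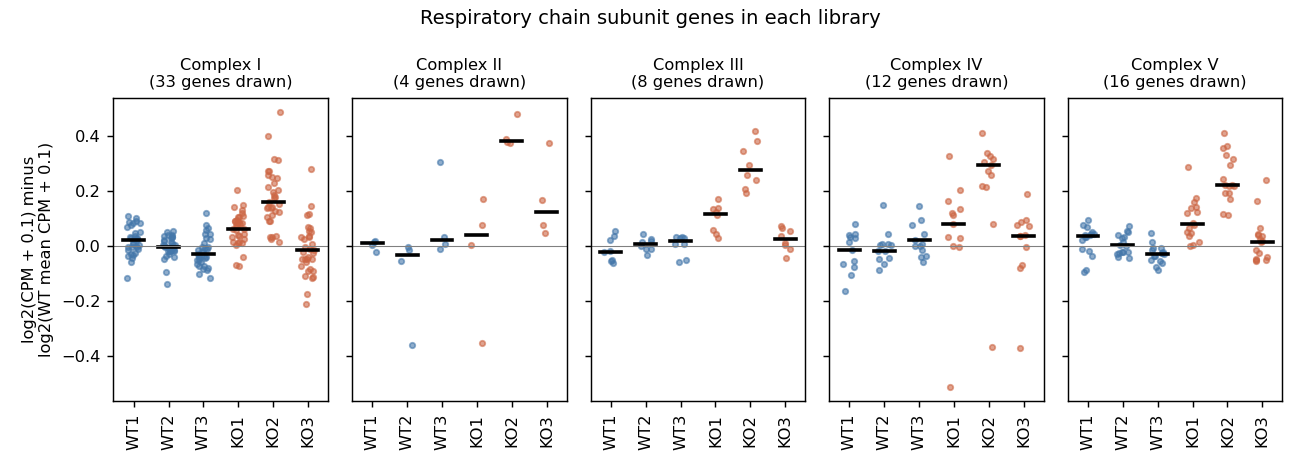
Each point is a subunit gene whose average log2 CPM reached 1, drawn in each library as log2(CPM + 0.1) minus log2 of the WT mean + 0.1; WT is blue and KO orange, and black bars are the medians over all tested subunits of the complex. Ndufs5, whose libraries differ several-fold, is not drawn; the medians of KO2 lie at 0.16 to 0.38, above those of the other libraries in each complex.

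Complex I had 35 tested subunits, 32 with a positive log2 fold change and a median of 0.08 (0.02 without KO2). Its 7 genes of the NADH-oxidising N module had a median of 0.08, and the 5 of the ubiquinone-reducing Q module a median of 0.14. Ndufa7, an accessory subunit, had the smallest p among the subunits of complex I. It was at 62.2, 63.5 and 62.7 CPM in WT and at 72.3, 68.5 and 69.5 CPM in KO, so the groups did not overlap. Its log2 fold change was 0.16 (standard error 0.04, adjusted p = 0.0964 by edgeR), and from its longest exonic part alone it was -0.22. Ndufb9, another accessory subunit, had the highest level per length among the complex I subunits, at 80.4 ± 3.43 CPM per kb in WT (SD, n = 3), and an edgeR adjusted p of 0.375. Of the 8 Ndufaf assembly factors, 6 had a positive fold change, and 0 had an unadjusted p under 0.05.

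Ndufa4l2 and Ndufa4 were set apart from complex I. Ndufa4, first described with complex I, is now placed with complex IV. Ndufa4l2 is its paralog and is known to be induced when oxygen is low. Ndufa4l2 lies on chromosome 10 from 126951995 to 126954208 (plus strand, NCBIM37), in 4 exonic parts. It was at 23.0, 23.6 and 21.9 CPM in WT and at 18.7, 18.4 and 17.5 CPM in KO. Every KO library was below every WT library, and the spread within each group was small beside the gap. It fell by 0.32 on the log2 scale (standard error 0.06, adjusted p = 0.0485 by edgeR). Its last part, of 710 bases, holds 53.7% of its WT counts and overlaps Shmt2, and reads of the genes cannot be told apart there. Shmt2, a serine hydroxymethyltransferase of mitochondria, had a log2 fold change of 0.12 (standard error 0.08, adjusted p = 0.420 by edgeR). From parts that overlap no other gene, the change of Ndufa4l2 was -0.26 and did not pass, nor did it pass when any single library was left out (log2 fold change from -0.30 to -0.35).

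The paralog Ndufa4 moved the other way in value: it was at 102, 95.1 and 95.2 CPM in WT and at 111, 133 and 108 CPM in KO. Its log2 fold change of 0.27 (SE 0.09) had an edgeR adjusted p of 0.149. As a share of the counts of both genes, Ndufa4l2 took 18.3%, 19.9% and 18.7% in WT and 14.5%, 12.2% and 14.0% in KO. The groups did not overlap, and the exact two-sided permutation test gave p = 0.1, the smallest that 3 against 3 libraries allow (adjusted over 10 isoform pairs, 0.333). Mesangial and smooth muscle markers (10 genes), another glomerular cell type, summed to 2793 to 3091 CPM in WT and 2647 to 3181 CPM in KO. Of these 10 genes, 3 had a positive fold change. Their median was -0.10, and it ran from -0.22 to 0.10 with 1 library left out. In this list 0 were called by edgeR (1 at an unadjusted p under 0.05), DESeq2 or limma-voom. Endothelial markers (11 genes) summed to 7410 to 7837 CPM in WT and 6787 to 7214 CPM in KO, every KO library below every WT library, and all 11 had a negative fold change, with a median of -0.13. Of these, edgeR called 0 (2 at an unadjusted p under 0.05), limma-voom 0 and DESeq2 2, Ehd3 and Robo4, both lower. The part of these cells in the share of Ndufa4l2 was not tested.

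Complex II has 4 nuclear-encoded subunits, and all 4 had positive fold changes, with a median of 0.20 (0.05 without KO2). Sdhd, a membrane anchor, had the smallest p. It was at 54.2, 53.5 and 54.4 CPM in WT and at 60.8, 70.0 and 60.7 CPM in KO, with no overlap. Its log2 fold change was 0.24 (standard error 0.07, adjusted p = 0.105 by edgeR). Sdha, the flavoprotein that oxidises succinate, was at 276, 263 and 279 CPM in WT and 274, 354 and 288 CPM in KO, where only KO2 stood clearly apart. Sdhb, the iron-sulfur subunit, had an edgeR adjusted p of 0.315. Sdhaf1, an assembly factor for the iron-sulfur subunit, had a log2 fold change of 0.26 (standard error 0.10, adjusted p = 0.186 by edgeR), but its 1 exonic part overlaps another gene in full. Sdhaf2, which attaches the flavin to Sdha, had the lowest fold change of the group, at -0.05.

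Complex III had 8 tested subunits, all with positive fold changes, and a median of 0.14 (0.07 without KO2). Uqcrfs1, the Rieske iron-sulfur protein, was at 41.0, 39.5 and 40.6 CPM in WT and at 45.4, 54.0 and 42.5 CPM in KO. All KO libraries were above all WT libraries, and the log2 fold change was 0.23 (standard error 0.09, adjusted p = 0.206 by edgeR). The small subunits Uqcr10 and Uqcrh followed with edgeR adjusted p of 0.250 and 0.251. Uqcrb, at 94.6 ± 2.95 CPM per kb in WT, had the highest level per length in the complex and the smallest change, 0.07. Cyc1, the cytochrome of complex III that the prefixes leave out, was at 67.4, 68.8 and 71.6 CPM in WT and 76.8, 86.6 and 72.3 CPM in KO, with a log2 fold change of 0.18 (edgeR adjusted p = 0.211).

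Complex IV had 15 tested subunits, 13 with a positive fold change and a median of 0.14 (0.05 without KO2). Cox7a2, the form of subunit VIIa found in most tissues, came closest to passing upward. It lies on chromosome 9 from 79603048 to 79607660 (minus strand, NCBIM37). It was at 71.0, 66.8 and 68.8 CPM in WT and at 86.5, 87.3 and 78.5 CPM in KO. All KO libraries were above all WT libraries, KO1 and KO2 about alike, with a log2 fold change of 0.29 (standard error 0.06, adjusted p = 0.0513 by edgeR). It passed with a filter of at least 1 CPM in 3 libraries and with DESeq2. Cox8a was at 82.6, 83.8 and 83.9 CPM in WT and at 96.1, 103.9 and 89.2 CPM in KO (log2 fold change 0.21, edgeR adjusted p = 0.125).

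Cox4i2, the less common form of subunit IV and known to respond to low oxygen, and Cox6a2 were the 2 tested subunits of complex IV with a negative fold change. Cox4i2 was at 2.67, 2.65 and 3.13 CPM in WT and at 1.94, 2.16 and 2.15 CPM in KO, with all KO libraries below all WT libraries. Its log2 fold change was -0.43 (standard error 0.13, adjusted p = 0.129 by edgeR). The common form Cox4i1 was at 138 to 148 CPM in WT and at 143, 167 and 137 CPM in KO. Cox4i2 took 1.92% ± 0.14 of the counts of both genes in the WT libraries and 1.39% ± 0.14 in the KO libraries (SD; exact two-sided permutation p = 0.1, adjusted 0.333). Of the muscle forms, Cox6a2 took 0.179% of the counts it shares with Cox6a1 in WT and 0.108% in KO (exact permutation p = 0.1, adjusted 0.333), at 24 counts or more per library. Cox7a1 overlapped between the groups. It was at 0.92, 0.99 and 1.20 CPM in WT and at 0.97, 2.34 and 0.63 CPM in KO, highest in KO2. Exact permutation p for the shares of the other 7 tested pairs ran from 0.3 to 1.0, where Cox6b2, Cox7a1, Cox7b2, Cox7a2l and the Atp5g genes were the variants. Cox8b and Cox8c, with under 10 counts in a library, were not tested.

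**Figure D2:**
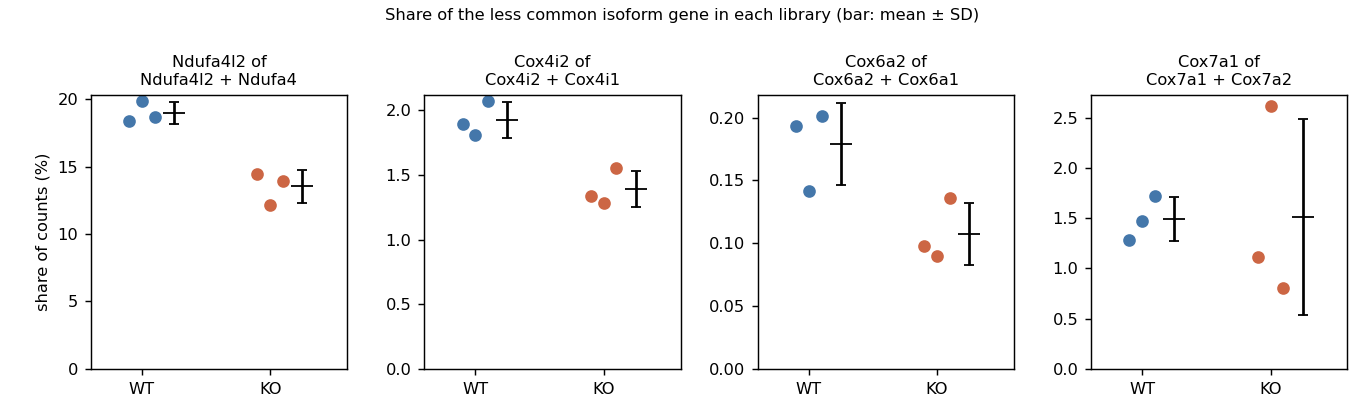
Share of counts, in percent, of the less common gene of 4 isoform pairs in each library, WT in blue and KO in orange, with the mean and SD beside the points; each axis starts at 0. The groups do not overlap for Ndufa4l2, Cox4i2 and Cox6a2, and Cox7a1 spreads from 0.800% to 2.62% in KO.

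Complex V had 16 tested subunits, all with positive fold changes, and a median of 0.12 (0.03 without KO2). The 5 genes of the F1 part, its head with the central stalk (Atp5a1, Atp5b, Atp5c1, Atp5d and Atp5e), had a median of 0.09. The 3 genes of the membrane ring's c subunit (Atp5g1, Atp5g2, Atp5g3), which encode the same mature protein, had a median of 0.19. Atp5b, the catalytic subunit, was at 872, 835 and 848 CPM in WT and at 860, 1045 and 823 CPM in KO. Atp5a1 was at 665, 650 and 634 CPM in WT and 652, 771 and 628 CPM in KO. In both, KO1 and KO3 lay within or below the WT range and KO2 above it, and without KO2 the log2 fold changes were -0.03 each. Atp5s, coupling factor B, was counted as a subunit by its symbol alone. It had the smallest p of the complex, with 6.24 to 6.84 CPM in WT, 7.73 to 8.12 CPM in KO and a log2 fold change of 0.25 (standard error 0.09, adjusted p = 0.156 by edgeR). Atp5d and Atp5f1, of the central and the outer stalk, had edgeR adjusted p of 0.164 and 0.193, and Atp5h, also of the outer stalk, the smallest fold change, 0.02. Among the c-subunit genes, Atp5g2 took 65.9% ± 1.87 of the length-scaled counts of Atp5g2 and Atp5g3 in WT and 64.2% ± 1.93 in KO.

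**Figure D3:**
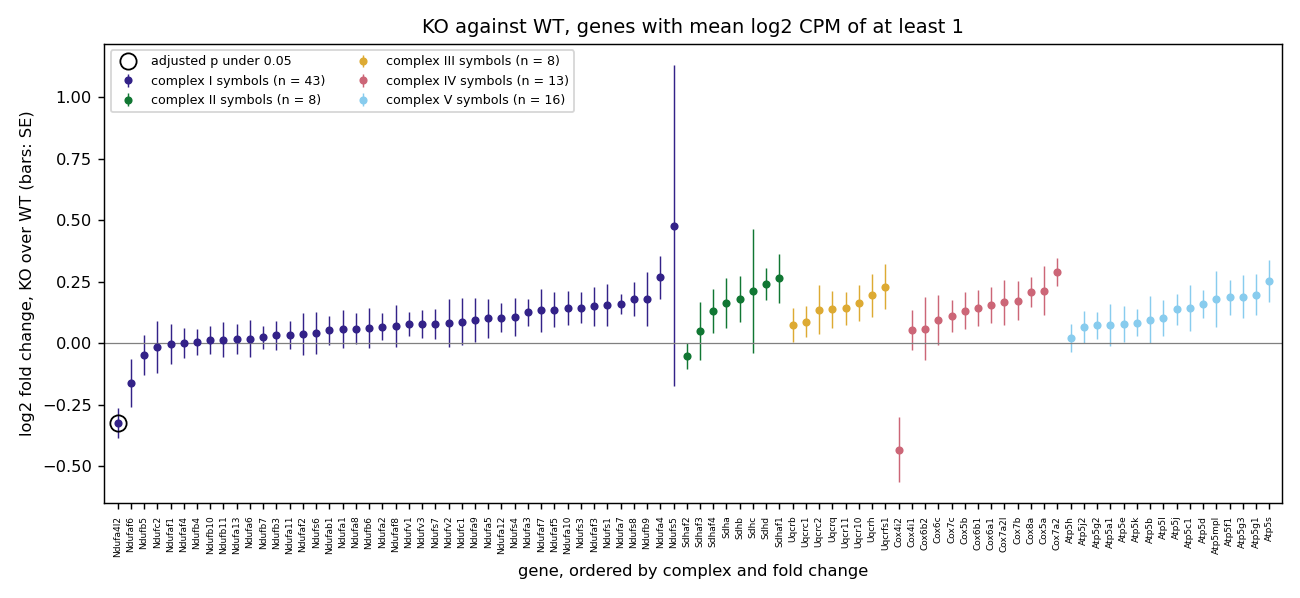
Log2 fold change of KO over WT with its standard error for members whose average log2 CPM reached 1, ordered by complex and size; 1 such member is not drawn. Ndufa4l2, circled, at -0.32 is the only gene past the test; Cox4i2 at -0.43 also lies below 0, and Ndufs5 has the widest bar.

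Levels differed more between members than between groups. Scaled by the length of all annotated exonic parts, the highest WT levels were those of Cox4i1 (211 ± 7.16 CPM per kb), Atp5a1 (207 ± 5.00), Atp5b (201 ± 4.49), Ndufa4 (198 ± 8.23) and Cox5b (195 ± 7.07; SD, n = 3 each). Neighbours in this order lay within the sum of their SDs. Median WT levels per complex ran from 37.1 CPM per kb for complex II and 38.7 for complex I to 66.6 for complex III, 80.3 for complex V and 84.6 for complex IV. The length counts parts that few reads reach, which lowers the value of genes with long annotated ends. Reads crossing part borders are counted repeatedly, which raises the value of genes cut into many short parts. Processed pseudogenes that resemble a member can share its reads, and how the authors' counting split them is not known here. The 9 members not tested were Ndufa11b, Ndufs6b, Uqcrh-ps1, Uqcrh-ps2, Cox6c2, Cox8b, Cox8c, Atp5k-ps2 and Atp5l-ps2.

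Most members varied little within a group, with a median within-group SD of 0.09 on the log2 scale (89 members), against 0.10 over 13138 genes. Ndufs5 and Sdhc were the exceptions, and they were picked out after their values were seen. Ndufs5, an accessory subunit of complex I on chromosome 4 from 123389953 to 123395445 (minus strand, NCBIM37), was at 4.89, 4.92 and 16.6 CPM in WT and at 4.48, 16.7 and 15.6 CPM in KO. WT1, WT2 and KO1 were low and WT3, KO2 and KO3 high, so each group held both levels, and its within-group SD of 1.03 exceeded that of 99.4% of all genes. Part 3, counted from the lowest coordinate, of 218 bases, differed most, with 183, 208 and 1978 counts in WT and 248, 1909 and 1978 in KO. That part took 20.1%, 23.5% and 52.3% of the gene's counts in WT and 21.3%, 52.0% and 52.6% in KO. Part 1, of 159 bases, held 310, 298 and 490 counts in WT and 384, 482 and 489 in KO, a much narrower range.

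Sdhc, a membrane anchor of complex II, lies on chromosome 1 from 173057296 to 173080734 (minus strand, NCBIM37). It was at 77.7, 61.4 and 97.4 CPM in WT and at 61.8, 110 and 102 CPM in KO, with WT3, KO2 and KO3 high again. Its within-group SD of 0.40 exceeded that of 93.0% of all genes. The lowest-coordinate part, of 2242 bases, took 9.46%, 5.13% and 11.1% of its counts in WT and 5.22%, 11.8% and 11.5% in KO.

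**Figure D4:**
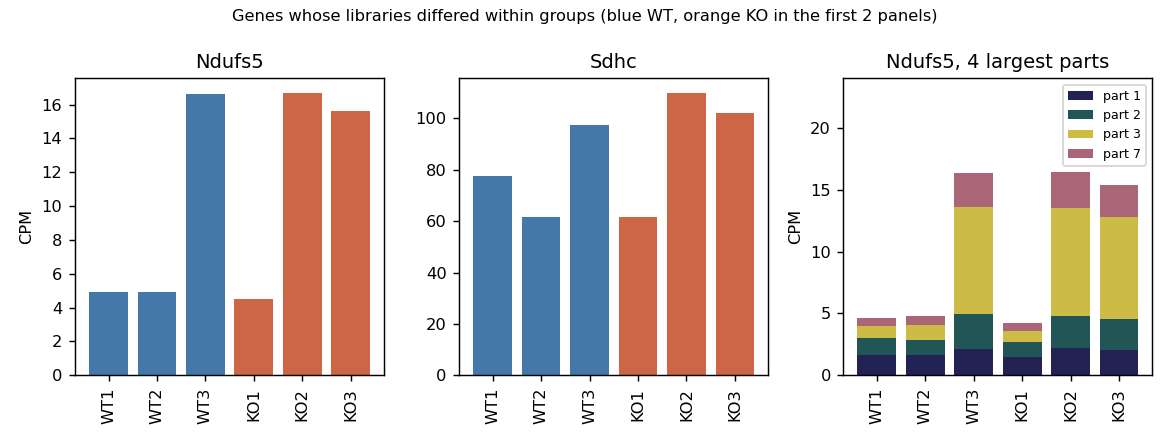
CPM of Ndufs5 and Sdhc in each library (WT blue, KO orange) and, stacked in the last panel, of the 4 exonic parts of Ndufs5 with the most counts. Ndufs5 is at 4.48 to 4.92 CPM in WT1, WT2 and KO1 and at 15.6 to 16.7 CPM in WT3, KO2 and KO3, and part 3 makes most of that gap.

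The use of exonic parts within genes, which the study's title makes relevant since it names splicing, gave no call among the members. Of 91 members with at least 2 parts to compare, 0 passed (diffSpliceDGE in edgeR, Simes' method per gene), against 0.383% of 15145 genes. At an unadjusted p under 0.05 there were 5 members (5.49%), and the share over all genes was not taken. Of 868 parts, 0 passed, against 0.0627% of all parts. Ndufab1, the acyl carrier subunit of complex I, came first, and the other 4 were Atp5f1, Atp5g1, Cox7b and Sdhaf3. In Ndufab1 the part of 2936 bases at the lowest coordinate took 15.0%, 15.2% and 15.9% of the gene's counts in WT and 10.0%, 11.1% and 12.3% in KO. All KO libraries were below all WT libraries there (edgeR adjusted p for the part 0.285, for the gene 0.668). Limma-voom's diffSplice called Ndufab1 and no other of the 91 members, against 1.62% of all genes. Atp5c1 and Ndufv3, which are known to have tissue-specific splice forms, had Simes p of 0.990 and 0.899 before adjustment. On simulated exonic parts, diffSpliceDGE found 7.46% of changes of 1.5-fold and 66.15% of changes of 2-fold, so small changes in use could be missed. Of its 123 calls there, 107 fell on changed parts. The simulation gave all parts the same spread, not estimated from these data, so these shares may differ here.

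Promoters of these genes are known for sites of NRF1 and of the ETS factor GABP, which is why promoter sequences are shown. RefSeq promoter sequences (GRCm38.p6, 250 bases before the start to 50 after) matched 77 of 105 members, among them 61 of the 74 subunits whose average log2 CPM reached 1. The NRF1 motif, GCGCA followed by any base and GCGC, on either strand, was in 16 of the 61 (26.2%), against 5.19% of the 27025 genes in the table, whose windows have the same length; a gene with more than 1 window counted if any held the motif. The ETS motif CCGGAAG, on either strand, was in 16 (26.2%), against 9.93%. At least 1 of these motifs was in 28 (45.9%), against 14.0%. The 61 subunits were filtered by expression and the 27025 genes were not, so the shares are not from matched sets. Subunits with an NRF1 motif had a median log2 fold change of 0.08 and those without one 0.11, and for the ETS motif the medians were 0.14 and 0.09. Shown are Sdhd, with the smallest p of complex II, Sdha and Uqcrc1, with repeated motifs, and Cox7a2, the subunit closest to passing. Capitals mark the motifs, on whichever strand they match, and none of the motifs printed overlap.
Sdhd, chr9:50603800-50604099, minus strand: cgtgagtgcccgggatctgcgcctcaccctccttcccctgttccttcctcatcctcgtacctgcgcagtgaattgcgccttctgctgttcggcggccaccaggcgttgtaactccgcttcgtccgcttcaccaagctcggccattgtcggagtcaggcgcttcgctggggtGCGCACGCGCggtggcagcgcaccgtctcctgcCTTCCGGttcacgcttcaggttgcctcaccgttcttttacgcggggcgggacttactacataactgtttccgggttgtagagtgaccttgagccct
Sdha, chr13:74350191-74350490, minus strand: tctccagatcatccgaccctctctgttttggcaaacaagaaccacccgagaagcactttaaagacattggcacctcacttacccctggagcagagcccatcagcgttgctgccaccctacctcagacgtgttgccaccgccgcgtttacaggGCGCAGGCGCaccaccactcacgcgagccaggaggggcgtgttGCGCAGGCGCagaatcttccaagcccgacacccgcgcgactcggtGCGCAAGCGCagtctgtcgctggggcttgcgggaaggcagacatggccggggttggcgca
Uqcrc1, chr9:108936398-108936697, plus strand: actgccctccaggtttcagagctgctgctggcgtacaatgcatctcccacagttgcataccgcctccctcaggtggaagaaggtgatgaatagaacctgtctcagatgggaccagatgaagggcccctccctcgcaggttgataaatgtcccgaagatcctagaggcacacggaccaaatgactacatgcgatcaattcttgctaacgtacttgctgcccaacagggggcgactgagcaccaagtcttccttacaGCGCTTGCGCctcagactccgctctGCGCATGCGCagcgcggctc
Cox7a2, chr9:79759804-79760103, minus strand: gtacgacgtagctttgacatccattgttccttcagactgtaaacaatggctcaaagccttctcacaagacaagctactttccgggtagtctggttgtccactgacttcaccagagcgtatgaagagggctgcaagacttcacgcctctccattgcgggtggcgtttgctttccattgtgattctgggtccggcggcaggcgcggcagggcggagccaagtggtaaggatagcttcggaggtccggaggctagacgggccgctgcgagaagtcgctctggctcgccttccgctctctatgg
The promoter of Sdhd held 1 NRF1 and 1 ETS motif, that of Sdha 3 NRF1 motifs and that of Uqcrc1 2 NRF1 motifs. These letters were not in the window of Cox7a2. Nrf1, which encodes the factor, was at 52.6, 52.8 and 51.7 CPM in WT and at 40.0, 39.1 and 46.1 CPM in KO, with a log2 fold change of -0.33 (standard error 0.07, adjusted p = 0.0653 by edgeR). Gabpb1, a subunit of GABP, had a log2 fold change of -0.14 (standard error 0.06, adjusted p = 0.199 by edgeR). Of the 12 regulators of mitochondrial biogenesis, edgeR called 0 (3 at an unadjusted p under 0.05) and limma-voom 0, and their median was -0.06. DESeq2, and edgeR without KO3, called 1, Nrf1, lower.

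Other lists of the pathway mostly held no gene called by edgeR, whose calls are given here unless another tool is named, and limma-voom called 0 in every list of this paragraph. Assembly genes of complex I outside the prefix (10 tested, median 0.02, Ecsit and Tmem186 with the smallest p), of complex III together with Cyc1 (7, median 0.15, Lyrm7 and Cyc1), of complex IV (20, median 0.01, Surf1 and Cox14) and of ATP synthase (3, median 0.12, Atpaf1 and Atpaf2) had 0 called, with 0, 3, 2 and 1 genes at an unadjusted p under 0.05. DESeq2 called Lyrm7 and Surf1 higher and no other gene of these 4 lists. The 4 tested genes of cytochrome c and the adenine nucleotide and phosphate carriers had 0 called, 2 at an unadjusted p under 0.05, and a median of 0.13. Among them Slc25a4 and Slc25a3 had the smallest p. Slc25a4, an adenine nucleotide carrier, was at 106 to 110 CPM in WT and 119 to 126 CPM in KO (edgeR adjusted p = 0.0910), and DESeq2 called it higher. The 18 genes of the tricarboxylic acid cycle and pyruvate dehydrogenase had 0 called by edgeR or DESeq2, 1 at an unadjusted p under 0.05, and a median of 0.06 (-0.01 without KO2), with the smallest p for Ogdh and Idh3a. The 19 glycolysis genes had 0 called, 9 at an unadjusted p under 0.05, and a median of 0.27 (0.13 without KO2), with the smallest p for Hk1 and Pkm. DESeq2 called 6 of them higher (Hk1, Hk2, Aldoc, Eno1, Pkm and Slc16a3), and edgeR called Hk1 with a filter of at least 1 CPM in 3 libraries. Pkm, the pyruvate kinase gene, was at 276, 282 and 270 CPM in WT and at 370, 450 and 320 CPM in KO. Of 72 mitochondrial ribosomal proteins 1 fell, Mrps25 (log2 fold change -0.25, standard error 0.04, adjusted p = 0.0425 by edgeR; not called with any library left out), and their median was 0.06, whereas DESeq2 called 6 higher and 1 lower. The 59 cytosolic ribosomal proteins had 0 called by edgeR (3 at an unadjusted p under 0.05) or DESeq2 and a median of -0.05, with the smallest p for Rps24 and Rps7.

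Of 8 antioxidant enzymes of mitochondria, 2 rose. Gpx4, which reduces lipid peroxides, was at 270, 273 and 270 CPM in WT and at 313, 312 and 314 CPM in KO. Txn2, mitochondrial thioredoxin, was at 73.1, 71.7 and 73.8 CPM in WT and at 82.4, 86.8 and 84.7 CPM in KO. In both, every KO library was above every WT library with little spread (log2 fold changes 0.21 and 0.22, edgeR adjusted p = 0.0498 each). Neither passed when any library was left out, with RLE scaling or with limma-voom. Members are short, with a median exonic length of 1216 bases against 2988 for all genes. Split by length into 3 equal groups, all genes had medians of 0.04, 0.03 and -0.04 from the shortest to the longest.

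**Figure D5:**
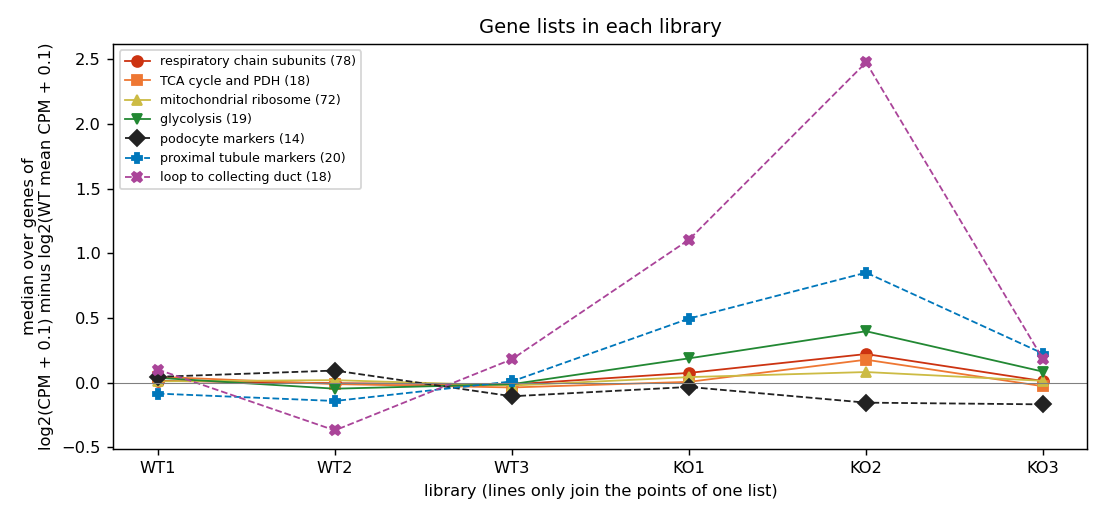
Median over each list's tested genes (number in brackets) of log2(CPM + 0.1) minus log2 of the WT mean + 0.1, by library; lines only join a list's points. In KO2 the respiratory chain subunits stand at 0.22, proximal tubule markers at 0.85 and loop to collecting duct markers at 2.48.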

How the data were processed

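RNA of 3 KO and 3 WT podocyte libraries was measured by the authors, who deposited 1 table per library. Per the file headers, each table lists 368092 exonic parts of the Ensembl 67 annotation of NCBIM37 with the deposited read count, the covered bases, the part length and the covered fraction, a deposited value between 0 and 1. Per the submitters' processing notes, the tools include TopHat 1.4.1 and the builds include the human GRCh37, whereas the tables themselves carry mouse coordinates. Neither the read counter nor its strandedness is given in the sources used here, and counts were treated as unstranded.

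Counts of all parts were added up per gene, so reads crossing part borders are counted repeatedly. Symbols came from the reference annotation by Ensembl identifier. Genes were tested with edgeR 4.0.16 (TMM, filterByExpr, quasi-likelihood test, all 6 libraries, no covariates). Exon usage was tested with diffSpliceDGE, and isoform shares with exact permutation tests in Python 3.11.15. Alternatives used RLE scaling, other filters, DESeq2 1.42.0, limma-voom 3.58.1, a replicate block, parts that overlap no other gene, the longest part alone, and each library left out. On simulated counts of 19476 genes for KO against WT, edgeR found 33.3% of changes of 1.5-fold and 84.4% of changes of 4-fold, and 10 of its 121 calls were false. The median SE of a log2 fold change was 0.13 over all genes tested and 0.078 over the members.

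Named were members past the test; per complex the 3 smallest p, the largest rise and fall among genes whose average log2 CPM reached 1, and the 2 highest levels per kb; isoform pairs; smallest-p parts; and of each other list the genes past the test or the 2 smallest p. The members and lists were chosen with earlier results of these data known. The values of 1 member that the totals include are not reported here.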

Additional observations from a re-analysis of the deposited data

How the results depend on the processing

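Across 14 alternatives, the number of members past the test was 6 with DESeq2, 2 with at least 1 CPM in 3 libraries (5.02% of all genes called), 1 with RLE scaling (3.32%) or the longest part alone (2.38%), and 0 with limma-voom, with no filter (2.05%), from parts that overlap no other gene (3.21%), and with the replicate block, which left 82 of all genes called (0.415%). It was 0 to 0 when each library was left out in turn, in fits that called 0.154% to 1.27% of all genes. Same-numbered libraries deviated together with correlations of 0.11, -0.06 and 0.16, and WT1 correlated as closely with KO2 (0.11) as with KO1, so the numbers were not taken to pair the samples; the blocked fit gave Cd2bp2 -0.32, no longer past the threshold. Ndufa4l2 did not pass in 10 of the 14. Leaving out each library in turn, the median of complex II ran from 0.049 to 0.25 and that of complex V from 0.035 to 0.16, lowest without KO2. From the longest part alone the sign turned for 23 of 94 members, 66 of the 94 were above 0 (85 of 96 from all parts), and among the genes named by rule it turned for Ndufa7 (-0.22), Sdhb (-0.21), Uqcrh (-0.023), Uqcrb (-0.37), Atp5f1 (-0.10), Atp5h (-0.21), Cox6b2 (-0.023) and Cox7b (-0.23), and Cd2bp2 was at -0.27 and no longer passed. Without KO2 the sign turned for 24 of 96 members, among the genes named by rule for Uqcrb (-0.00044, up to 0.12 over the libraries left out), Cox4i1 (-0.045), Atp5h (-0.037, up to 0.055), Atp5a1 (-0.031), Atp5b (-0.027) and Cox7a1 (-0.38, up to 0.67), and without WT1 for 6 of 96, among them Cox6b2 (-0.020, up to 0.14). Cd2bp2 ran from -0.31 to -0.36 over the fits without a library, and 5 of these did not pass. Share differences, in percentage points, turned sign for Cox7a1 (-0.066 from the longest part, -0.083 without WT1, -0.53 without KO2, up to 0.38), Cox6b2 (0.031 without WT2, down to -0.36), Atp5g1 with Atp5g3 (-0.94 from the longest part, -0.052 without KO1, -0.019 without WT3, up to 0.32) and Atp5g1 with Atp5g2 (-1.30 from the longest part). Limma-voom's diffSplice called 1 of 91 members and 1.62% of all genes. The cause of these changes was not tested. The number of libraries limits precision: the median SE was 0.078 over the members and 0.13 over all genes tested.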
